A study of Homo sapiens with 3 samples.

Results

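The 10 genes described here encode the structural proteins of the desmosome: the cadherins DSG1, DSG2, DSG3, DSC2 and DSC3, and the plaque proteins DSP, JUP, PKP1, PKP2 and PKP3. They were chosen by gene name, as all transcripts of the listed Ensembl genes, which gave 10 of the 52992 genes and 48 of the 196354 transcripts in the tables. RNA was measured in TE5, an established human cell line of esophageal squamous cell carcinoma, in cells transfected with shKLF5, a short hairpin RNA against the zinc finger factor KLF5, or with a scrambled control, and harvested after 48 h. There were 2 libraries of shKLF5 cells, numbered 1 and 2 in the labels without a statement of whether they are separate hairpins or cultures, and 1 library of scramble cells. The p-values therefore rest on the spread of these 2 libraries, possibly a technical one, and take the lone scramble library to be as variable. That spread is mostly pooled over all genes, with 6.86 prior degrees of freedom against 1 residual one of the gene itself.

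Desmosomes are spot junctions that anchor the keratin filaments of neighbouring cells to each other. Desmogleins and desmocollins are calcium-dependent cadherins that meet in the gap between the cells. Inside, their tails bind plakoglobin (JUP) and the plakophilins (PKP), both armadillo repeat proteins, and desmoplakin (DSP) ties this plaque to keratin. In stratified squamous epithelium such as that of the esophagus, DSG3 and DSC3 are known from the basal layers and DSG1 from the upper layers, while DSG2 and PKP2 are the forms that simple epithelia and the heart also use.

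The libraries held between 32720563 and 33544752 estimated counts. KLF5 had 1333 and 1531 counts in shKLF5 libraries 1 and 2, against 8402 in scramble. All 6 squamous markers (TP63, KRT5, KRT6A, KRT17, SFN, TRIM29) were detected in each library. Levels are in CPM (counts scaled to library size and by the trimmed mean of M-values, TMM). The summed level of these markers, mostly KRT5 and KRT6A, was 1768 and 1035 CPM in shKLF5 libraries, against 8615 CPM in scramble. All 6 were lower in both shKLF5 libraries, SFN by the least, at 92.7 and 114 against 169 CPM. Markers of other cell types summed to 63.7 and 44.8 CPM in shKLF5 libraries against 49.2 CPM in scramble for 5 fibroblast genes, nearly all of it COL1A1, to 3.35 and 3.998 against 0.828 CPM for 5 leukocyte genes, to 7.17 and 10.2 against 3.27 CPM for 3 endothelial genes, mostly VWF, and to 0.279 and 0.0863 against 0.226 CPM for 4 glandular genes, of which MUC2 was at 0 in each library. ITGAM, which holds most of the leukocyte sum, had 72 and 108 counts in shKLF5 libraries against 8 in scramble. Among the fibroblast genes PDGFRB had 39 and 35 against 3, COL1A2 18 and 15 against 1, DCN 9 and 7 against 4, and LUM 20 and 4 against 9. Of the endothelial genes CDH5 had 14 and 10 against 0, and KDR 6 and 2 against 0. The part of these markers in the results on desmosome genes was not tested.

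The sequences that bear on the results are shown here. DSP makes a long and a short protein from the same gene, desmoplakin I with 2871 residues and desmoplakin II with 2272 residues by the GENCODE 29 coding sequence, and the ratio of their transcripts differed between libraries. The short form skips the last 1797 bases of exon 23 of 24, which encode 599 residues of the central rod (GRCh38 chr6:7579773-7581569, plus strand). The reference transcript sequences across the splice sites follow, with the bases after the shared end or the junction in capitals.
Desmoplakin II, short form, across its own junction from chr6:7579753-7582661: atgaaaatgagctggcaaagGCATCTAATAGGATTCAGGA
Desmoplakin I, long form, running on through the same point, chr6:7579753-7579792: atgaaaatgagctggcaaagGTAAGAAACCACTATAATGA
Desmoplakin I, long form, across its junction at the end of exon 23, chr6:7581550-7582661: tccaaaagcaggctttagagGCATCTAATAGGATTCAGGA
Both forms enter exon 24 with the same bases, and they part after the lower-case bases that the first 2 lines share.

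Promoter sequence is shown for the 2 cadherins furthest below scramble and for DSP, since the study's question is what follows the loss of KLF5, a factor known to bind GC-rich boxes of the CACCC kind. The bases come from RefSeq on GRCh38.p14, 5′ to 3′ on the gene's strand, and stop at the annotated start of the gene in RefSeq or GENCODE 29, whichever lies further upstream. Capitals mark each match to CCNCNCCC, a KLF-type pattern, on either strand.
DSG3, chr18:31447491-31447740, plus strand: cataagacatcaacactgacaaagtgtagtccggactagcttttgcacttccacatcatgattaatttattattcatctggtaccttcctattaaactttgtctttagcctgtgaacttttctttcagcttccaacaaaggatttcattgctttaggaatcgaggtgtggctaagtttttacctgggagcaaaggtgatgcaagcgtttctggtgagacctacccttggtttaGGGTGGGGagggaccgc
DSC3, chr18:31042816-31042992, minus strand: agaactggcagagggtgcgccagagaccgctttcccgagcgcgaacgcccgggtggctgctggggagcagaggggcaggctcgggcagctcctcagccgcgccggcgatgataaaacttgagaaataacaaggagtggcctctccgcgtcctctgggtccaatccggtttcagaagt
DSP, chr6:7541421-7541574, plus strand: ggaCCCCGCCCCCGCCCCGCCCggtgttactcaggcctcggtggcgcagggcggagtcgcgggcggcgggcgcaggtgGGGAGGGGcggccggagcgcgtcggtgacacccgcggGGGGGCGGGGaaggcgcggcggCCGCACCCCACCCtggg
In the 250 bases before the RefSeq start, CCNCNCCC matched 9 times at DSP, 1 time at DSG3 and 0 times at DSC3. Of the members 8 of 10 had an entry in the promoter table, with 10 windows because DSC2 and JUP have 2 starts each, and 8 of the 10 windows, from 7 of the 8 genes, had at least 1 match, where 53.4% of all 35116 windows had one. The GC box GGGCGG, which overlaps the KLF-type pattern where further G follow, was found in 6 of the 10 windows, from 5 of the 8 genes, and in 42.6% of all windows. The AP-1 type pattern TGANTCA was found in 0 of the 10 windows and in 6.57% of all windows. A match is a string of letters and not a binding site.

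The 3 abundant cadherins of these cells, DSG2, DSG3 and DSC3, lay below scramble in each shKLF5 library. DSG3, the desmoglein of basal squamous cells and the antigen of pemphigus vulgaris, had 8078 and 5776 counts in shKLF5 libraries 1 and 2, against 15213 in scramble. That is 196 ± 41.9 CPM (SD, n = 2) in shKLF5 cells and 572 CPM in scramble cells, with both shKLF5 values well below the scramble value and close to each other. DSG3 thus stood at a log2 fold change of -1.55 (SE 0.36, interval at 95% from -2.37 to -0.72), with an adjusted p of 0.424 by edgeR's quasi-likelihood test. DSC3, the desmocollin found with DSG3 in basal cells, had 7374 and 2370 counts, against 13170 in scramble. Both libraries lay below scramble, library 2 by far more than library 1, and the level was 137 ± 97.3 CPM (SD, n = 2) in shKLF5 cells and 495 CPM in scramble cells. The log2 fold change of DSC3 was -1.85 (SE 0.57, interval -3.16 to -0.55), the lowest of the 10 genes, with an adjusted p of 0.474 by edgeR. DSG2, the widely expressed desmoglein, had 9418 and 3576 counts, against 12924 in scramble, or 183 ± 113 CPM (SD, n = 2) against 486 CPM. As for DSC3, library 2 was the lower of the shKLF5 libraries and neither reached the scramble level. The log2 fold change of DSG2 was -1.41 (SE 0.52, interval -2.60 to -0.22), with an adjusted p of 0.482 by edgeR.

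The other 2 cadherins were scarce. DSC2, the desmocollin of simple epithelia and heart, had 961 and 925 counts, against 888 in scramble. After TMM scaling this is 26.7 ± 0.152 CPM (SD, n = 2) in shKLF5 cells and 33.4 CPM in scramble cells, a log2 fold change of -0.32 (SE 0.37) with an adjusted p of 0.801 by edgeR, and the sign turned under library size alone, at 0.11, and in TPM. DSC2 was thus at nearly the same level in the shKLF5 libraries, and its interval of -1.18 to 0.54 takes in both no difference and a markedly lower level. DSG1, the desmoglein of differentiated upper layers and the antigen of pemphigus foliaceus, was almost absent, with 18 and 8 counts against 3 in scramble. The ratio to scramble was 4.45 in library 1 (95% exact counting interval 1.30 to 23.6) and 2.04 in library 2 (0.489 to 11.9). These intervals hold no spread between samples, and DSG1 passed the filter on low counts through its 18 counts in library 1. The fitted test across both libraries gave DSG1 an adjusted p of 0.641 by edgeR.

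**Figure D1:**
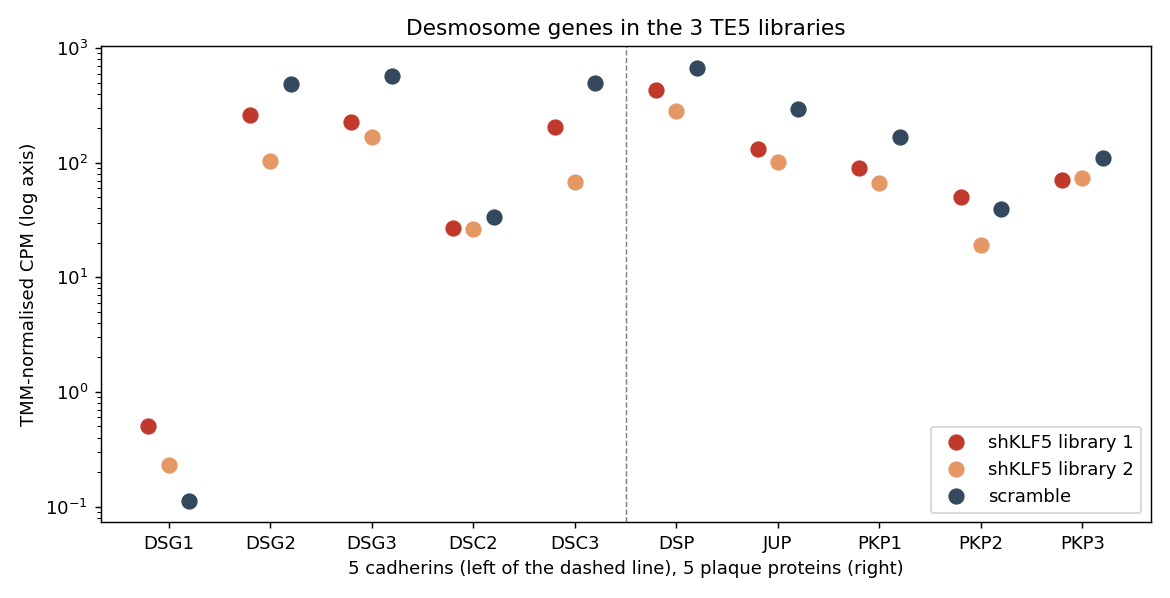
TMM-normalised CPM on a log axis for the 10 desmosome genes, 1 point per library, with the shKLF5 libraries left of scramble for each gene. DSG2, DSG3, DSC3, DSP, JUP, PKP1 and, by less, DSC2 and PKP3 have both shKLF5 points below the scramble point. PKP2 has them on either side of it, and DSG1 lies at 0.502 CPM or less in each library.

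Among the plaque proteins JUP, PKP1, DSP and, by less, PKP3 lay below scramble in each shKLF5 library, and PKP2 did not. JUP, the plakoglobin that also serves classical cadherins, had 4736 and 3541 counts, against 7873 in scramble, or 117 ± 21.4 CPM (SD, n = 2) against 296 CPM. The shKLF5 values lay close together and well below scramble. Its log2 fold change was -1.34 (SE 0.35, interval -2.15 to -0.53), with an adjusted p of 0.466 by edgeR. PKP1, the plakophilin of stratified epithelium, had 3214 and 2337 counts, against 4435 in scramble, or 78.5 ± 15.9 CPM (SD, n = 2) against 167 CPM. The groups did not overlap, and the log2 fold change was -1.09 (SE 0.36, interval -1.91 to -0.26) with an adjusted p of 0.474 by edgeR. DSP had 15448 and 9760 counts, against 17991 in scramble, or 356 ± 106 CPM (SD, n = 2) against 677 CPM. Library 1 stood nearer to scramble than library 2 did, and the log2 fold change of DSP was -0.93 (SE 0.39, interval -1.82 to -0.03) with an adjusted p of 0.531 by edgeR.

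The remaining plakophilins showed other patterns. PKP3, which is spread over most layers of epithelia, had 2548 counts in each shKLF5 library, against 2947 in scramble, or 72.2 ± 1.54 CPM (SD, n = 2) against 111 CPM. The shKLF5 libraries were nearly identical, and the log2 fold change was -0.62 (SE 0.34, interval -1.41 to 0.17), with an adjusted p of 0.606 by edgeR and a value of 0.03 by limma on log2(TPM + 1). PKP2, the plakophilin of simple epithelia and heart, had 1789 and 671 counts, against 1052 in scramble, or 49.9 and 19.3 CPM against 39.6 CPM. Library 1 was above scramble and library 2 below it. The log2 fold change of PKP2 was -0.19 (SE 0.55, interval -1.46 to 1.08), with 0.33 in library 1 alone, -1.03 in library 2 alone and 0.24 over both under library size alone. It was the 1 gene of the 10 whose gap between the shKLF5 libraries exceeded its difference from scramble.

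**Figure D2:**
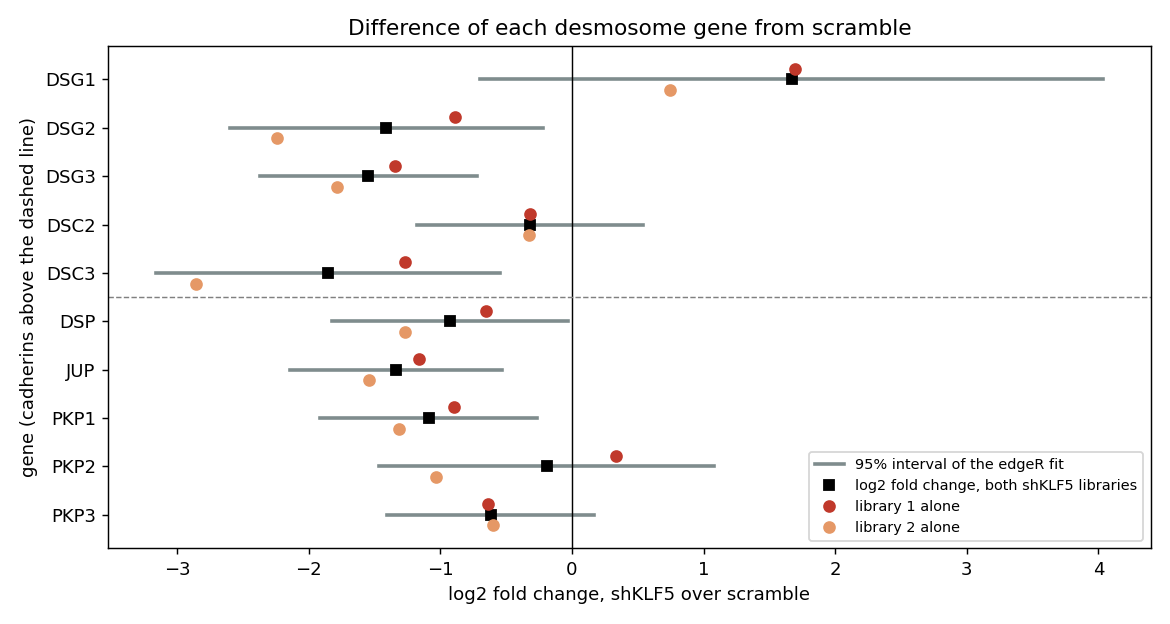
Log2 fold change of shKLF5 over scramble for each gene, cadherins above the dashed line, with the 95% interval of the fit across all genes (grey), the fitted value (square) and the value of each shKLF5 library alone (circles). The intervals of 6 genes lie below 0 before any adjustment, that of DSG1 is the widest and rests on 3 counts in scramble, and the library 2 circle lies left of the library 1 circle for 9 of the 10 genes.

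No member passed the test. In edgeR 0 of the 10 members, and 0 of 20629 genes tested (0%), had a Benjamini-Hochberg adjusted p under 0.05, and 0 members were called by DESeq2, which called 118 genes, or 0.669% of 17632, or by edgeR's legacy fit, which called 21, or 0.102%. An unadjusted p under 0.05 was found for 6 members, DSG2, DSG3, DSC3, DSP, JUP and PKP1, each of them lower, where 9.18% of all genes tested passed in either direction, 3.5% as lower and 5.68% as higher. Of the 10 genes 8 lay below scramble in each shKLF5 library, where 36.5% of all genes were, and 1 (DSG1) was higher in both, where 37.9% were. All 10 had passed the filter on low counts, DSG1 by its 18 counts in library 1. On TPM, which is scaled without TMM, 6 of the 10 were lower in both libraries. Under library size alone 7 were, while the median of all genes tested moved to 0.467, against 0.039 with TMM. The members are to be read beside that shift. The share of all genes lower in both was not taken on TPM or under library size alone, and the 36.5% holds for TMM only. In bulk RNA, fewer cells that make desmosomes and less of these RNAs per cell cannot be told apart.

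Library 2 lay below library 1 for 9 of the 10 genes, PKP3 being the exception, whereas 49.7% of all genes tested were lower in library 2 than in library 1. The gap was widest for DSC3, at 1.59 on the log2 scale, followed by PKP2 at 1.37 and DSG2 at 1.35, and it was 0.01 for DSC2. KLF5 itself went the other way, with 37.2 CPM in library 1 and 44.0 CPM in library 2. TP63, the master factor of the squamous lineage, had 138 CPM in library 1 and 58.9 CPM in library 2, against 315 CPM in scramble.

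Set side by side, the cadherins stood further below scramble than the plaque proteins by value. The median log2 fold change was -1.41 for the 5 cadherins, -1.48 without the scarce DSG1, and -0.93 for the 5 plaque proteins, against 0.04 for all genes tested. In library 1 alone the medians were -0.89 for cadherins and -0.65 for plaque proteins, and in library 2 alone -1.78 and -1.27. With TMM, cadherin genes summed to 721 and 364 CPM in shKLF5 libraries 1 and 2, against 1587 CPM in scramble. Plaque genes summed to 774 and 542 CPM, against 1290 CPM. Per length, and scaled without TMM, cadherin transcripts summed to 150 and 73.7 TPM, against 241 TPM in scramble. Without TMM this is 0.625 and 0.306 times scramble. Plaque transcripts summed to 218 and 165 TPM, against 257 TPM, or 0.848 and 0.644 times scramble, again without TMM. The cadherin share of the summed TPM was thus 40.8% and 30.8% in shKLF5 libraries, against 48.4% in scramble. With protein-coding transcripts only it was 44.6% and 36.3% against 51.2%, and in CPM 48.2% and 40.2% against 55.2%, lower in both libraries each time. With 1 scramble library an exact one-sided permutation test cannot give a p below 0.333, and no test of this difference was run. The families overlapped gene by gene, since JUP and PKP1 lay further below scramble than DSC2 did.

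**Figure D3:**
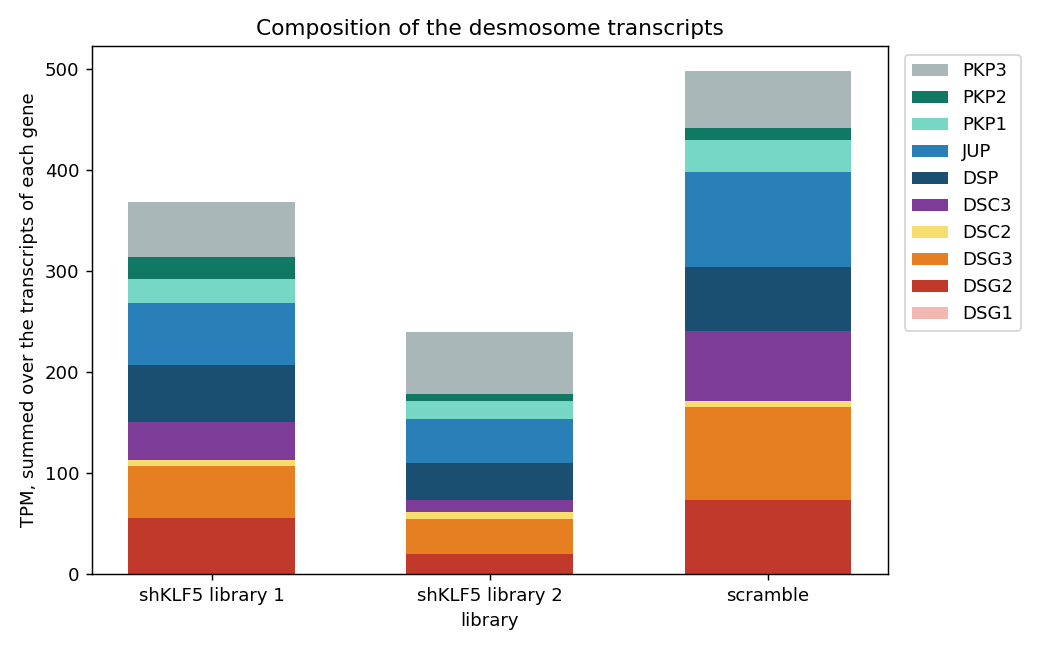
Stacked TPM, a level per transcript length scaled without TMM, of the 10 genes in each library. Cadherins are at the bottom (DSG1 too low to see) and plaque proteins on top. The stack reaches 368 and 239 TPM in the shKLF5 libraries and 498 TPM in scramble, and cadherins make up 40.8% and 30.8% of it in the shKLF5 libraries, against 48.4% in scramble.

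In shKLF5 cells the order by TPM was PKP3 at 57.8 ± 4.04, JUP at 52.2 ± 12.7, DSP at 46.4 ± 14.4, DSG3 at 42.6 ± 11.2, DSG2 at 38.2 ± 25.1, DSC3 at 24.9 ± 17.5, PKP1 at 20.7 ± 3.84, PKP2 at 14.6 ± 10.2, DSC2 at 6.36 ± 0.364 and DSG1 at 0.0882 ± 0.0502 TPM (SD, n = 2). Each neighbouring pair in the shKLF5 order, from PKP3 down to DSC2, differed by less than the larger of its SDs, and only DSG1 stood apart. In scramble, with 1 library and so no spread, the order by TPM was JUP at 94.1, DSG3 at 91.6, DSG2 at 73.9, DSC3 at 69.2, DSP at 62.9, PKP3 at 56.6, PKP1 at 31.8, PKP2 at 11.4, DSC2 at 5.92 and DSG1 at 0.0208. The rank of PKP3 rests partly on short noncoding fragments: its full-length coding transcript had 28.6 and 27.5 TPM in shKLF5 libraries, against 33.3 TPM in scramble, and the 312-base retained-intron fragment of the gene had 11.2 and 19.6 TPM, against 10.5 TPM, on 51.2 and 94.9 against 49.7 counts.

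Both DSP forms were measured, and they parted in library 2. The long form, desmoplakin I, which is the main form in the heart, had 12362 and 5511 counts in shKLF5 libraries 1 and 2, against 15015 in scramble. The short form, desmoplakin II, had 3086 and 4249 counts, against 2976. In CPM the long form stood at 345 and 159 against 565, and the short form at 86.1 and 122 against 112, so the long form was lower in both shKLF5 libraries while the short form was on either side of scramble. The short form made up 19.98% of the counts of the pair in library 1 (95% Wilson interval 19.4 to 20.6) and 43.5% in library 2 (42.6 to 44.5), against 16.5% in scramble (16.0 to 17.1). Without library 2 the share differs from scramble by 3.44 percentage points, and without library 1 by 27.0. Inside the transcripts, reads within the 1797 bases and on the junctions printed above tell the forms apart. The forms also differ at their ends, as the long one has 9796 bases in all and the short one 7812. Reads at the ends thus also enter the split. The intervals cover counting error only and not the error of dividing reads among transcripts.

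The desmocollins are spliced into a long a form and a b form, whose shorter tail lacks the end that binds plakoglobin. The b form of DSC3, of 839 residues, made up 46.1% and 40.3% of the counts of both DSC3 forms in shKLF5 libraries 1 and 2, against 37.2% in scramble, the a form having 896 residues. The share was higher than in scramble in both shKLF5 libraries. For DSC2 the b form, of 847 residues, took 29.3% and 28.4%, against 38.2% in scramble, a difference in the opposite direction on far fewer counts. Inside the transcripts 43 bases separate the DSC3 forms and 46 the DSC2 forms, which also differ at their ends. Most of these counts cannot tell the forms apart. What the division of reads among forms adds to these shares was not tested. By estimated counts the shares of the 2 desmocollins thus differed from scramble in opposite directions. The b form of DSC3 still had a lower estimated level than in scramble, at 94.7 and 27.1 CPM against 182 CPM.

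PKP2 and PKP1 also have a short a form and a long b form. The b form of PKP2, of 881 residues, had 70 and 0 counts in shKLF5 libraries 1 and 2, against 179 in scramble, while the a form of 837 residues had 1561 and 621, against 807. The b share of the estimated counts was 4.29% in library 1 and 0% in library 2, against 18.2% in scramble. Inside the transcripts 132 bases separate the forms. They also differ at their ends, as the a form has 4302 bases in all and the b form 4241. Most of these counts cannot tell the forms apart, and no limit is given for the 0. What the ends add to the b share was not tested. Within PKP2 there was thus a lower b form by value in both shKLF5 libraries beside an a form that lay on either side of scramble. The b form of PKP1, of 747 residues, differs from the a form by 63 bases and was given 0 estimated counts in each library, and the counts of PKP1 came mostly from the a form of 726 residues, with 3168 and 2269 against 4356 counts.

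**Figure D4:**
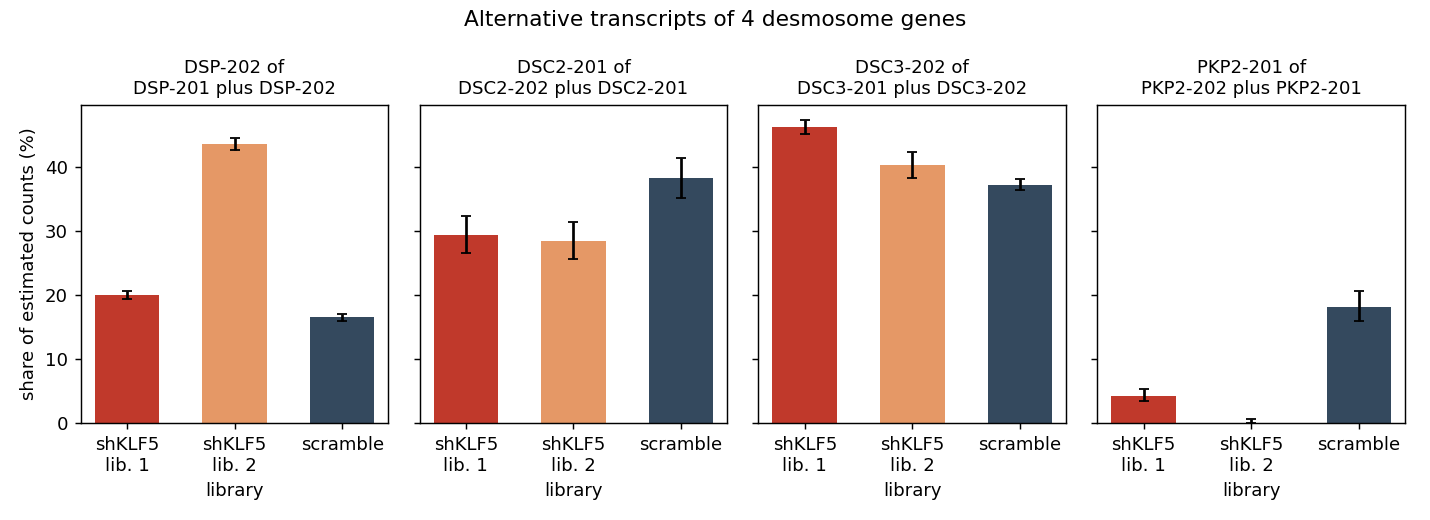
Share of the alternative transcript in the estimated counts of a transcript pair, for DSP, DSC2, DSC3 and PKP2, in each library. The 95% Wilson intervals take every estimated count as a read of known form. They leave out the error of dividing reads among transcripts and are too narrow to that extent. The interval drawn on the 0 of PKP2 is not to be read as a limit. The bar of the short DSP form reaches 19.98% in library 1 and 43.5% in library 2, against 16.5% in scramble, and the bars of the PKP2 b form in the shKLF5 libraries lie at 4.29% and 0, against 18.2% in scramble.

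Sequence shared with other genes was counted, since reads from it cannot be assigned to 1 gene. Of the 31-base words in the GENCODE 29 transcripts of each member, 0% were found in transcripts of another gene for JUP, PKP1 and PKP3, 0.0496% for DSP, and between 1.82% and 5.19% for the cadherins. PKP2 shared 11.8%, mostly with the noncoding gene AC005840.3. Some GENCODE 29 transcripts are longer than the deposited lengths, with 1563 against 589 bases for a short PKP2 transcript and 12325 against 5124 for the DSC2 a form. The shared words may thus lie partly outside the sequence to which reads were assigned. The cadherins shared at most 59 words with other members. Antisense genes overlap exons of DSG1 and DSG2, but DSG1-AS1 had 1 and 1 counts against 5 in scramble, and DSG2-AS1 had 9 and 6 against 25. In scramble the 5 counts of DSG1-AS1 are of the same order as the 3 of DSG1, and in shKLF5 libraries they are far fewer than those of the gene.

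All 5 cadherin genes lie together on chromosome 18 (GRCh38), in a cluster that runs from DSC3 (30990008 to 31042815, minus strand) through DSC2 (31058840 to 31102522, minus), DSG1 (31318089 to 31357029, plus) and DSG3 (31447795 to 31478702, plus) to DSG2 (31498043 to 31549008, plus). The 3 abundant cadherins lie at both ends of it, with the scarce DSC2 and DSG1 between them. The other 2 cadherins of the cluster were scarce as well. DSC1, the desmocollin of cornifying layers, had 47 and 14 counts against 16 in scramble, and DSG4, the desmoglein of hair, had 9 and 2 against 7 and was below the filter on low counts.

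Other desmosome and junction genes give the setting. PERP, a membrane protein of desmosomes and a target of p53 and p63, had 7711 and 5980 counts, against 9937 in scramble, and a log2 fold change of -0.95 (SE 0.35) with an adjusted p of 0.482 by edgeR. PKP4, an armadillo protein of adherens junctions and desmosomes, stood at -0.57 (SE 0.37), and CDSN, the corneodesmosin of cornified layers, had 9 and 6 counts against 2. Of these 5 genes 3 could be tested, and 2 of them were lower by value in both libraries, with DSC1 on either side of scramble. Of all genes tested 36.5% were lower in both. An unadjusted p under 0.05 by edgeR was found for 3.5% of them as lower and 5.68% as higher. These shares are to be read beside the lists that follow as well.

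Among 12 adherens junction genes, whose median log2 fold change was -0.49, 7 lay below scramble in each shKLF5 library, 2 above it in each, and 3 on either side. None of the 12 passed the adjusted test by edgeR, and 1 in each direction had an unadjusted p under 0.05. CDH1, the E-cadherin of the same cell borders, had 5367 and 3577 counts, against 9283 in scramble, and a log2 fold change of -1.47 (SE 0.37), near that of DSG3. VCL, vinculin, stood at -0.98 (SE 0.43), CTNNA1, alpha-catenin, at -0.64 (SE 0.34) and NECTIN4, a nectin, at 1.65 (SE 0.67), the last on 207 and 514 counts against 87.

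Of 14 keratins and plakin linkers 13 could be tested, and their median was -1.66, with 11 below scramble in each shKLF5 library and the other 2 on either side. An adjusted p under 0.05 was reached by 0 of them in edgeR, and an unadjusted one by 10, each lower. KRT5, the basal keratin whose filaments DSP holds, stood at -3.01 (SE 0.55), and KRT14 and KRT6A at -5.22 and -2.59, further below scramble by value than any desmosome gene. KRT4 had 5 and 0 counts against 70. Keratin paralogs share sequence, and their single values are uncertain to that extent. Of 9 genes of desmosome turnover 8 could be tested, with 6 lower in both, a median of -0.55, 2 with an unadjusted p under 0.05 and 0 with an adjusted one in edgeR. CAV1, caveolin, had 1675 and 2714 counts, against 5002 in scramble (-1.59, SE 0.40), KLK7, a protease of cornified desmosomes, had 23 and 10 against 58, and the shedding protease ADAM10 and the acyltransferase ZDHHC5 stood at -0.79 (SE 0.46) and -0.56 (SE 0.34).

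The genes nearest to a member in the pair of single-library log2 fold changes, among 3454 protein-coding genes averaging 50 CPM or more, were PGD, L1CAM and CDH1 for DSG3, at distances of 0.07, 0.12 and 0.12. For DSC3 they included TMTC3 and CYP4F11, at 0.18 and 0.28, and for DSP they were EPS8L2, FAM129B and PPIB, at 0.06 each. These likenesses rest on 3 libraries that share 1 scramble library.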

How the data were processed

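RNA-seq of 3 TE5 libraries was analysed, 2 of shKLF5 and 1 of scramble, grouped by the labels. Kallisto and DESeq2 are named without versions, with the build hg19, in the submitters' processing notes; which transcript set and strand setting applied was not given in the sources used here. Per the file headers, each transcript has an estimated count, which the authors left unnormalised, and a TPM value. The authors' TPM divides counts by effective length and brings every library to 1 common total. The deposited lengths served for an alternative with length-scaled counts.

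By Ensembl identifier 181857 of 196354 transcripts (92.6%) matched GENCODE 29 (GRCh38), whose coordinates are printed. The unmatched ones held 3.42% and 3.40% of counts in shKLF5 libraries and 3.05% in scramble and were left out. Counts were summed per gene, rounded, filtered with filterByExpr, scaled by TMM (factors 1.11 and 1.10 for shKLF5 libraries, 0.82 for scramble) and tested with edgeR 4.0.16 (R 4.3.3, quasi-likelihood F test, non-legacy fit), and p-values were adjusted by Benjamini-Hochberg across 20629 genes at a threshold of 0.05. There was 1 residual degree of freedom, with 6.86 prior ones. SE was derived from the log2 fold change and F, and intervals cover 95%. Single-library values used a prior count of 2. SD is over the 2 shKLF5 libraries. The test was first run on simulated data with known changes, as a check of the code. The simulated spread was set well below that of these data, so that run does not measure power or error rates here.

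The members and lists were chosen with earlier results of these data known, so lists are described without tests. Named were KLF5, TP63, the members, the other desmosome genes, up to 4 genes of smallest p per other list, overlapping genes, and the 3 genes nearest to DSG3, DSC3 and DSP, of which 1 is not reported here. Alternatives used DESeq2 1.42.0, limma 3.58.1 and other scalings, filters and gene totals. Reads carried no molecular identifiers, so intervals on counts cover counting error only. A comparison of protein sequences was not made.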

Additional observations from a re-analysis of the deposited data

How the results depend on the processing

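No member passed an adjusted p of 0.05 under any of the 10 alternatives that give a test. Over these and edgeR's main test the members' adjusted p ran from 0.119 (DSG3, DESeq2) to 0.999. DESeq2 gave none for DSG1, and the filter at a mean CPM of at least 5 left DSG1 out, also from the cadherin median. The number of genes called overall was 0 by the main test, 21 by edgeR's legacy fit and 118 by DESeq2, and 0 under the other 8 alternatives. The direction of 7 members was the same under each alternative that gave a value. DSC2 turned to 0.11 under library size alone and to 0.088 and 0.10 by limma on log2(TPM + 1) and log2(TPM + 0.1). PKP2 turned to 0.24, 0.15 and 0.14 under the same 3, and ran from -1.03 to 0.33 on leaving out either shKLF5 library. PKP3 turned to 0.028 by limma with either pseudocount. The cause was not tested. The plaque median was -0.46 and -0.47 by limma with a pseudocount of 1 and 0.1, against -0.93. Leaving out 1 shKLF5 library gave a cadherin median between -1.78 and -0.89, a plaque median between -1.27 and -0.65, a difference in cadherin share between -17.5 and -7.52 percentage points, a difference in the share of the short DSP form between 3.44 and 27.0 points, and no test. The choices on TPM for the count of lower members, and on the share of the short DSP form, were added after seeing the data. No paired analysis was possible, because there was 1 scramble library and the labels give no pairing. With 3 counts of DSG1 in scramble, depth limits what can be said of that gene.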
